A study of Mus musculus with 4 samples.

Results

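The genes described here encode the cytosolic ribosomal proteins, and their mRNA was measured after farnesol in H460, a long-established cell line from a human lung carcinoma. They were taken by name: every non-control probe whose gene name was RPL or RPS followed by a number, with or without a final A, L or X, or was RPLP0, RPLP1 or RPLP2. This gave 81 genes on 207 probes, out of 18760 gene symbols and 41000 probes on the array. RPSA was also on the list of names, but no probe carried that name. By name, 46 genes belong to the large subunit (60S), 32 to the small subunit (40S) and 3 to the P-stalk, and all 81 genes and 207 probes could be tested.

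The cytosolic ribosome is built from a large and a small subunit, each a scaffold of ribosomal RNA that carries many small, mostly basic proteins. Most of these proteins are needed in equal number, and their mRNAs are among the most abundant in a growing cell. These mRNAs start with a run of pyrimidines, the 5′ terminal oligopyrimidine (TOP) motif, through which the mTOR kinase controls their translation. Several free ribosomal proteins also bind MDM2 and so raise p53 when ribosome assembly is disturbed.

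Per the labels, the cells were treated for 4 h with 250 µM farnesol, an isoprenoid alcohol, or with the vehicle, DMSO. There were duplicate experiments, and each farnesol RNA was set against its matched vehicle RNA on 2 arrays with the dyes exchanged. This makes 2 replicates of 2 arrays each, on which both dyes were read, and each array pair repeats the measurement of the same RNA. Although the organism given for the samples is Mus musculus, the treatment protocol gives a human line and the gene names on the array are human. The labels do not say whether the duplicates were separate cultures, so a p-value may measure technical spread only. Only 1 line, 1 dose and 1 time were measured.

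A log2 ratio below sets farnesol over vehicle, so that 0 means equal signal, 1 a 2-fold higher and -1 a 2-fold lower signal. The brightest probe stood for a gene, the SD is the spread of the 2 replicates (n = 2), and the test was limma's, adjusted by the method of Benjamini and Hochberg over all 28600 tested features. Per channel, 82.7% to 93% of spots exceeded background by the scanner's flag, and the number of arrays limits the precision. All 5 epithelial markers were above background, but so were 4 of 5 leukocyte, 3 of 5 fibroblast and 4 of 4 endothelial markers. The epithelial KRT8, KRT18 and KRT19 had a log2 intensity above 10, and the lowest epithelial marker had 7.38. The highest leukocyte, fibroblast and endothelial markers had 8.88, 7.51 and 8.21. A total RNA comparison of this kind cannot tell a change in the number of cells from a change in RNA per cell.

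With the scaling by intensity described below (loess), the ribosomal protein genes as a whole stayed close to a log2 ratio of 0. When each array was instead only centred on its median, their median was -0.14, with 13 genes above 0 and 68 below. The values that follow are those with loess. The median log2 ratio of the genes was 0.04, with 0.02 in replicate 1 and 0.06 in replicate 2, beside 0.01 for all tested features. On the 4 arrays the median was -0.02, 0.04, 0.11 and 0.04. Every one of the 81 genes lay within 0.5 of 0, whereas 92.7% of all features did. The interquartile range of the genes ran from -0.06 to 0.13, the lowest was RPL39L at -0.42 and the highest RPL12 at 0.33. Of the 81 genes 48 were above 0 and 33 below.

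No ribosomal protein gene passed the test: 0 of 81 had a limma adjusted p under 0.05, beside 0.0105% of all features, and the lowest adjusted p among them was 0.199. Without adjustment, 6 of 81 genes (7.41%) had p under 0.05 and were higher, beside 3.71% of all features, and 6 (7.41%) were lower, beside 10.8%. With a normexp offset of 0 these counts were 0 and 1, beside 4.9% and 9.65% of all features. None was at least 2-fold higher in both replicates, beside 0.654% of all features, and none at least 2-fold lower, beside 0.238%. A looser count took genes with the same sign on all 4 arrays. It gave 18 higher genes (22.2%), beside 20.9% of all features, and 16 lower genes (19.8%), beside 21.8%, so both shares were near the background. A second fit, added after the data were seen, treated the 4 arrays as repeated measures with the replicate as a random block. It called 10.1% of all features and 4 of 81 ribosomal protein genes (4.94%), namely RPL39L, RPL12, RPS7 and RPS27L, with limma adjusted p from 0.00825 to 0.0424.

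**Figure D1:**
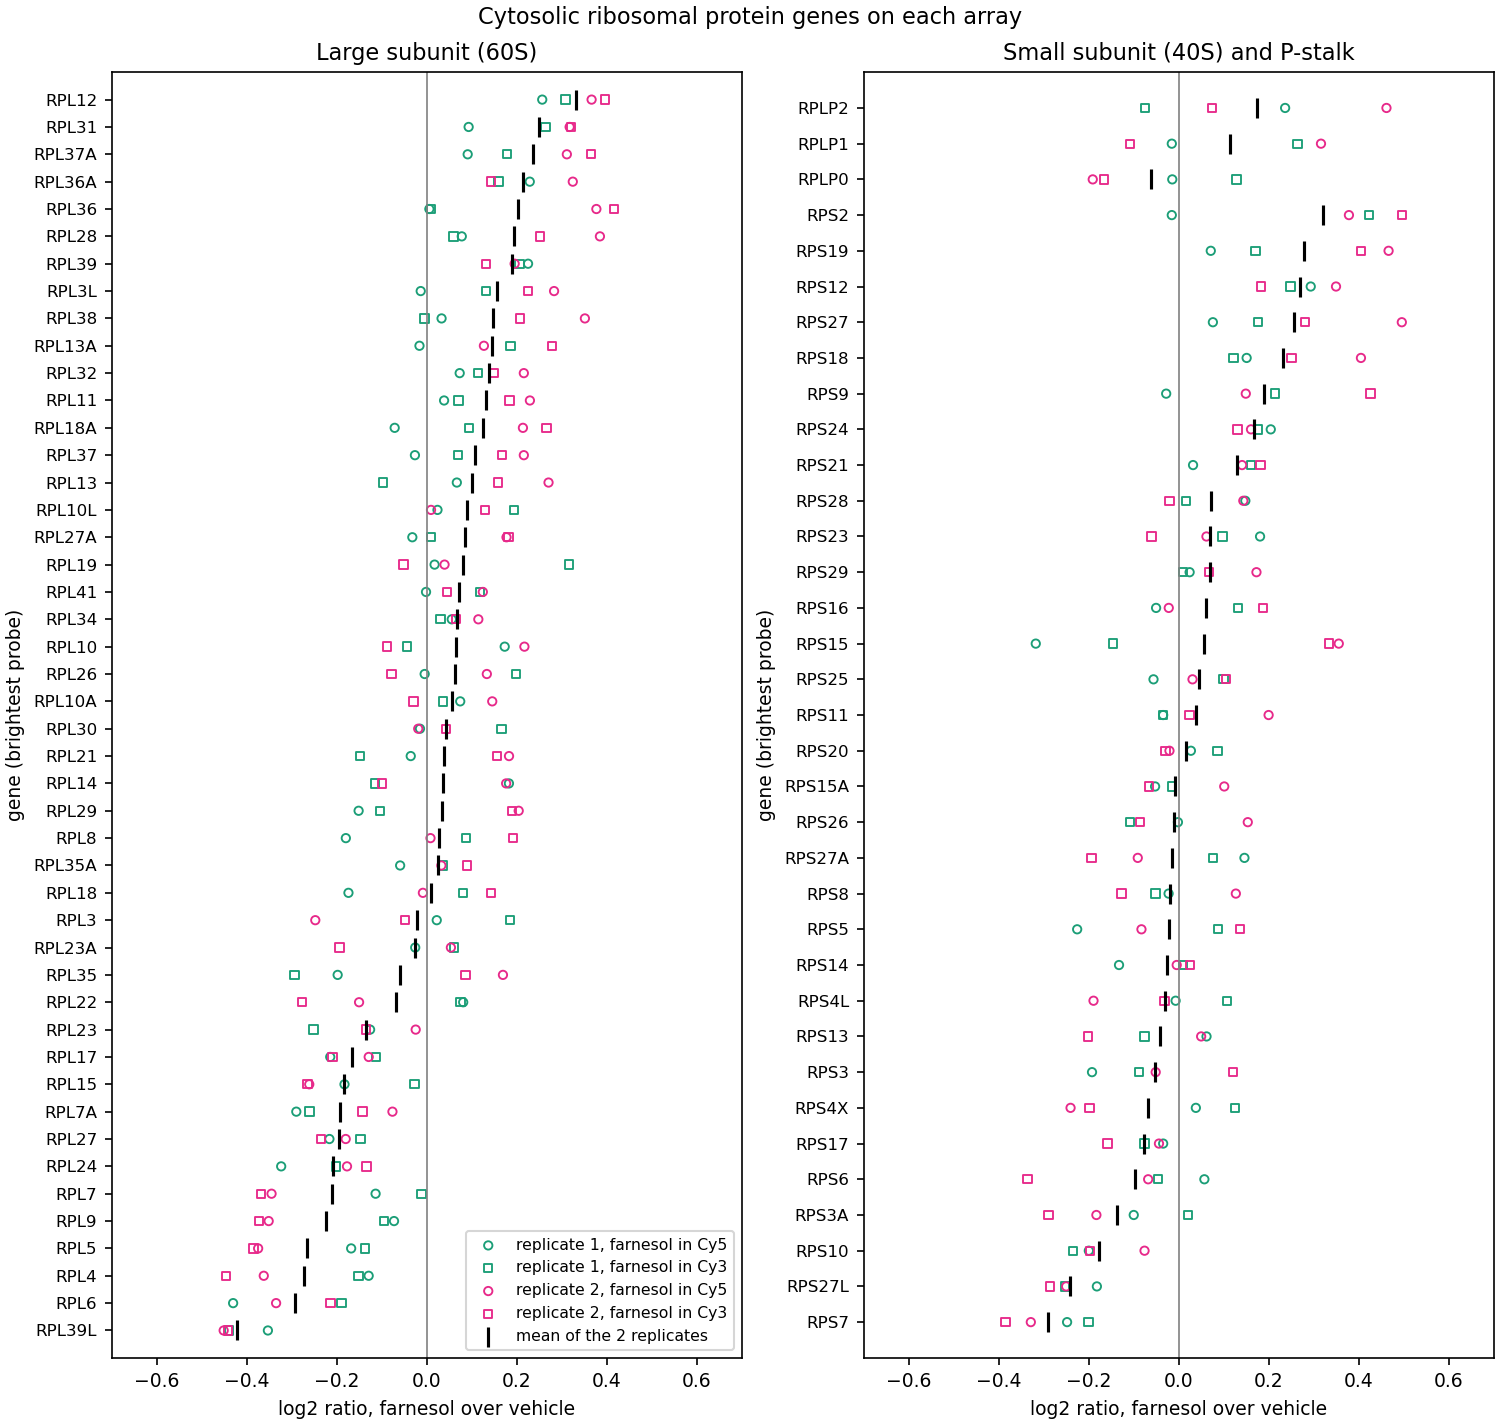
Log2 ratio of farnesol over vehicle (horizontal axis) for each of the 81 ribosomal protein genes (rows, sorted by mean within 60S, 40S and P-stalk) on each of the 4 arrays; circles have farnesol in Cy5, squares in Cy3, and the black bar is the mean of the 2 replicates. All means lie between -0.42 (RPL39L) and 0.33 (RPL12), and in most rows the arrays spread over more than the distance of the mean from 0.

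These probes are among the brightest on the array, so the scanner's limit matters for them. Of the 100 brightest tested features 27 were ribosomal protein genes, and of the 500 brightest 70 were. Saturated spots were nevertheless few: in either channel 6, 9, 2 and 1 of the 207 ribosomal protein spots were flagged on the 4 arrays, of 48, 56, 55 and 34 flagged spots in all. Counting any spot with a saturated pixel gave 13, 16, 8 and 5. No ribosomal protein spot was flagged as an outlier.

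The saturated genes were RPS2, RPLP1, RPL19, RPL26, RPL23A and RPS27. RPS2, which lies at the entry of the mRNA channel of the small subunit, had the brightest probe of all, and it was saturated in both channels on 4 of 4 arrays, so no ratio is given for that probe. The next probe of RPS2, saturated in 1 vehicle spot, had log2 ratios of 0.13 and 0.14 in the replicates, and the third, never saturated, had 0.06 and 0.33. The 3 dimmest probes had -0.16, -0.03 and -0.05 in replicate 1 and 0.46, 0.31 and 0.38 in replicate 2. The probes of RPS2 thus had a common sign in replicate 2 but not in replicate 1. RPS2 is 1 of the 6 higher genes with an unadjusted limma p under 0.05 through its saturated probe. On the brightest probe RPLP1 had 1 saturated farnesol and 3 saturated vehicle spots, and RPL26 had 1 and 2. A second probe added 1 and 1 for RPLP1, and 0 and 1 for RPL26. RPL19 and RPS27 had 1 and 1, and RPL23A had 1 in a vehicle channel. With saturated spots left out 79 genes remained, and their median was 0.06.

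**Figure D2:**
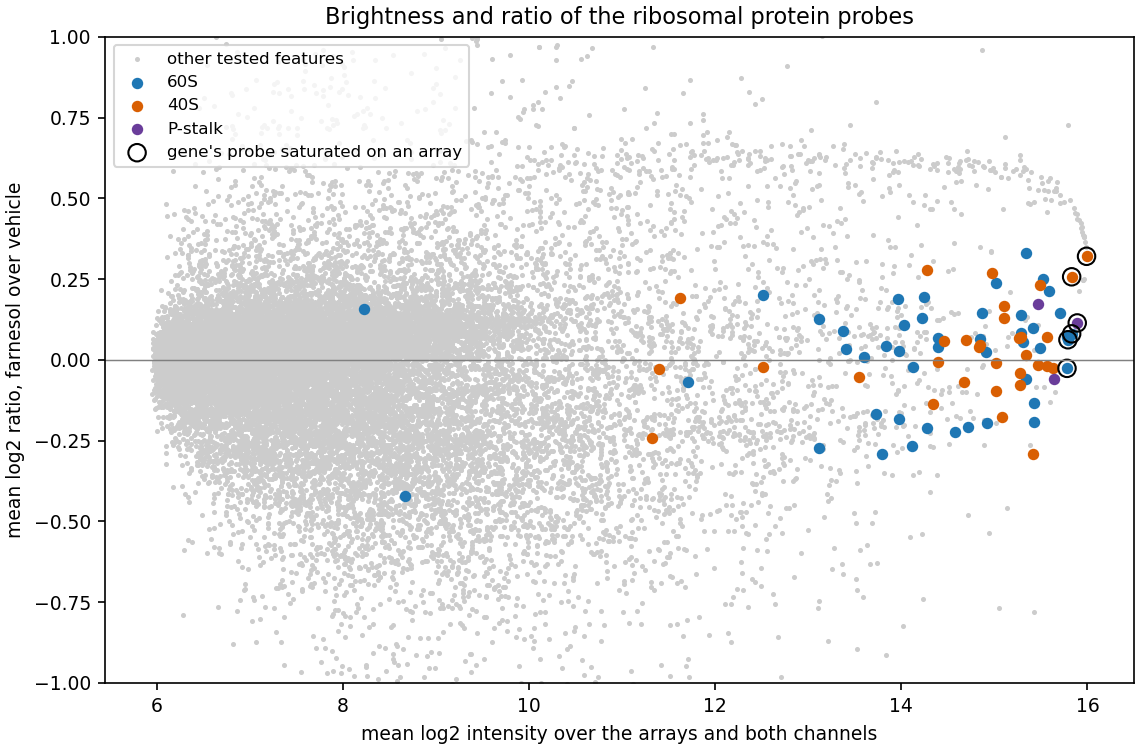
Mean log2 ratio of farnesol over vehicle (vertical axis, shown from -1 to 1) against mean log2 intensity (horizontal axis) for all tested features in grey and the ribosomal protein genes in colour; ringed genes had a saturated spot. Most ribosomal protein genes lie above a log2 intensity of 13, and RPL39L and RPL3L are the dimmest.

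Brightness also decides how the normalization treats these genes. Loess subtracts from the log ratios of each array their fitted trend with intensity, and the ribosomal protein genes make up a part of the bright end. At a log2 intensity of at least 14 there were 61 ribosomal protein genes, with a median of 0.06, and 255 other features, with a median of 0.32 (0.11 in replicate 1 and 0.44 in replicate 2). When loess was fitted without the ribosomal protein spots their median was 0.05. When each array was only centred on its median, the ribosomal protein median became -0.14, with 13 genes above 0 and 68 below, while that of all features was -0.01. The 255 other bright features then had a median of 0.17. The sign of the group's median therefore turned with the scaling. So did that of 10 of the 34 named genes, namely RPS15, RPL36, RPLP1, RPL19, RPL26, RPL13, RPL11, RPL10, RPL13A and RPL10L. The values of single genes below are relative to a bright end set by loess.

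Among the 46 genes of the large subunit the median was 0.05 (0.02 and 0.07 in the replicates), with 30 genes above 0 and 16 below. With median centring it was -0.12. RPL12, which sits at the base of the P-stalk, had log2 ratios of 0.26, 0.31, 0.37 and 0.40 on the 4 arrays, in the order replicate 1 with farnesol in Cy5, replicate 1 with farnesol in Cy3, replicate 2 with farnesol in Cy5 and replicate 2 with farnesol in Cy3, which is kept below. Every array was above 0 and replicate 2 was the higher. Its mean was 0.33 ± 0.07 (1.26-fold, limma adjusted p = 0.232), its 3 probes ran from 0.33 to 0.39, and it remained positive with median centring, at 0.17. RPL31, a protein near the exit of the peptide tunnel, had 0.09, 0.26, 0.32 and 0.32, a mean of 0.25 ± 0.10 (limma adjusted p = 0.314), and was also higher on all 4 arrays. RPL36A (0.21) and RPL39 (0.19) were the other large subunit genes that were higher with an unadjusted limma p under 0.05. RPL37A, with a mean of 0.24, had a wider spread (SD 0.14).

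At the other end stood RPL39L, a paralogue of RPL39 with restricted expression, at -0.35, -0.44, -0.45 and -0.44. All 4 arrays were lower in farnesol and nearly equal. The mean was -0.42 ± 0.04, a 1.34-fold lower signal, with the lowest limma p of all ribosomal protein genes (unadjusted 0.006, adjusted 0.199). RPL6 had -0.43, -0.19, -0.33 and -0.21. Its mean was -0.29 ± 0.03 (1.23-fold lower, limma adjusted p = 0.236), and its second probe gave -0.35. RPL4, whose loop lines the peptide tunnel, had -0.13, -0.15, -0.36 and -0.45. RPL5, which carries the smallest ribosomal RNA of the large subunit and can bind MDM2, had -0.17, -0.14, -0.37 and -0.38. Both were lower on all 4 arrays, with replicate 2 lower than replicate 1. Their means were -0.27 ± 0.19 and -0.27 ± 0.16, with limma adjusted p of 0.395 and 0.369. RPL24 (-0.21) and RPL27 (-0.19) were the other large subunit genes lower with an unadjusted limma p under 0.05. RPL9 (-0.22) and RPL7 (-0.21) were as low, with replicate values of -0.08 and -0.36 for RPL9 and of -0.06 and -0.36 for RPL7.

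RPL11 and RPL23 bind MDM2 as RPL5 does. RPL11 had 0.04, 0.07, 0.23 and 0.18, a mean of 0.13 ± 0.11, and was higher on all 4 arrays. RPL23 had -0.13, -0.25, -0.02 and -0.14, a mean of -0.13 ± 0.08, and was lower on all 4. The 3 genes had no common sign with loess, while with median centring all 3 were below 0 (RPL5 -0.45, RPL11 -0.06 and RPL23 -0.30). RPL10, which is added late in assembly of the large subunit, had 0.17, -0.04, 0.22 and -0.09. On this brightest probe the arrays split by dye and not by replicate, and the replicate means were both 0.06. The other RPL10 probes above a log2 intensity of 10 were instead higher with farnesol in Cy3 in both replicates. An example had -0.0058, 0.25, -0.09 and 0.18. RPL13A, known also from a complex that silences translation after interferon, had a mean of 0.14 ± 0.08. RPL22, an RNA-binding protein that Epstein-Barr virus RNAs sequester, had 0.08 and -0.21 in the replicates on its brightest probe. Its next probe, nearly as bright, had 0.02 and 0.08, and the means of its 4 probes ran from -0.24 to 0.05.

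Among the 32 genes of the small subunit the median was 0.0040 (0.02 and 0.03 in the replicates), and 16 genes were above and 16 below 0. With median centring the median was -0.16. RPS12, a protein of the beak of the subunit, had 0.29, 0.25, 0.35 and 0.18. Both replicates averaged 0.27, and the mean of 0.27 ± 0.0033 had a limma adjusted p of 0.249. RPS19, the first gene known to be mutated in Diamond-Blackfan anaemia, had 0.07, 0.17, 0.47 and 0.41. It was higher on every array, but replicate 2 lay far above replicate 1, and the mean was 0.28 ± 0.22 (limma adjusted p = 0.432). RPS27, a zinc finger protein, had 0.08, 0.18, 0.50 and 0.28, a mean of 0.26 ± 0.19, in the same order of replicates.

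RPS7, another MDM2 binder, had -0.25, -0.20, -0.33 and -0.38. All arrays were lower, and the mean was -0.29 ± 0.09 (1.22-fold lower, limma adjusted p = 0.273). Its 3 probes ran from -0.29 to -0.26. RPS6, the substrate of the S6 kinases, had 0.06, -0.05, -0.07 and -0.34, so that the replicates were 0.0057 and -0.20. The second, dimmer probe of RPS6 had 0.04 and 0.09 in the replicates. RPS3, which lines the entry of the mRNA channel, had a mean of -0.05 ± 0.12, and 0.04 on its second probe. RPS14, a protein of the platform, had -0.03 ± 0.05, and its 3 probes ran from -0.04 to 0.18. RPS27A, made as a fusion with ubiquitin, had -0.02 ± 0.18. None of the 4 had the same sign on all 4 arrays. RPS10 (-0.18 ± 0.06) was lower and RPS24 (0.17 ± 0.03) and RPS18 (0.23 ± 0.14) were higher on every array.

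The medians of the subunits differed little. The 40S median minus the 60S median was 0.0045, 0.01, -0.07 and -0.07 on the 4 arrays and -0.02 ± 0.03 over the replicates. With 2 replicates the smallest two-sided p of an exact sign-flip test is 0.5, so that test cannot call this difference.

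The P-stalk is the flexible arm that recruits the GTPase elongation factors, and RPLP0 anchors RPLP1 and RPLP2 in it. RPLP2 had 0.24, -0.07, 0.46 and 0.07, with the higher value in both replicates where farnesol was in Cy5. RPLP1 had -0.02, 0.26, 0.32 and -0.11, with saturated spots as given above. RPLP0 had -0.01, 0.13, -0.19 and -0.17, so its replicates were 0.06 and -0.18. None of the 3 had the same sign on all 4 arrays. Their means were 0.17 ± 0.13, 0.11 ± 0.01 and -0.06 ± 0.17, with limma adjusted p of 0.476, 0.493 and 0.801. The median of the 3 genes was 0.11 as averaged over both dyes, 0.15 from the farnesol-in-Cy5 arrays and -0.00067 from the farnesol-in-Cy3 arrays. The dye effect in replicates 1 and 2 was 0.11 and 0.15 for the brightest probe of RPL10, and 0.16 and 0.19 for RPLP2. These exceeded the members' median absolute dye effect of 0.05 in each replicate.

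Paralogues of ribosomal proteins could be set against their parent genes within each array. RPL39L minus RPL39 was -0.58, -0.65, -0.65 and -0.57, a mean of -0.61 ± 0.0015. With loess the 2 genes lay on opposite sides of 0 on 4 of 4 arrays: RPL39 had 0.22, 0.21, 0.20 and 0.13. The sign of RPL39 was not followed under the other settings. RPS27L, a paralogue that p53 induces, had -0.18, -0.25, -0.25 and -0.29 (mean -0.24 ± 0.04, limma adjusted p = 0.273). RPS27L minus RPS27 was -0.26, -0.43, -0.75 and -0.57, a mean of -0.50 ± 0.22, so this pair was also ordered the same way on every array. For both pairs a probe in the middle or low range of brightness (log2 intensity 11.3 for RPS27L and 8.67 for RPL39L) was set against a brighter one (15.8 for RPS27, saturated in 1 farnesol and 1 vehicle spot, and 13.96 for RPL39), and the part of brightness in these differences was not tested. RPL3L, known from heart and skeletal muscle, minus RPL3 was 0.18 ± 0.32. RPL10L, known from testis, minus RPL10 was 0.02 ± 0.03, and RPS4L minus RPS4X was 0.04 ± 0.10. Those 3 differences had both signs among the arrays. The probes of RPL3L, RPL10L and RPS4L had log2 intensities of 8.23, 13.37 and 11.4, beside 14.13, 14.85 and 14.67 for their parents. Probes of paralogues and of processed pseudogenes can share sequence, which was not checked. Whether the bright RPL10L probe reads the mRNA of RPL10 was therefore not tested.

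The replicates agreed only in part. Over the 81 genes the correlation of their values was r = 0.57 (rho 0.52 by ranks), beside 0.68 and 0.46 over all features, as a description across genes that share arrays and are not independent. The dye-swapped arrays of the same RNA correlated at 0.61 in replicate 1 and 0.81 in replicate 2, beside 0.94 in both for all features. These correlations cover unlike ranges, and a narrow range lowers a correlation by itself. The SD of the mean log2 ratio was 0.16 across the 81 genes and 0.34 across all features. The median absolute dye effect was 0.05 for the 81 genes and 0.04 for all features in each replicate. The same sign in both replicates was found for 56 of the 81 genes (69.1%), beside 65.5% of all features. The interquartile range of the genes was 0.16 in replicate 1 and 0.31 in replicate 2, beside 0.15 and 0.23 over all features, so both were spread more widely in replicate 2.

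RPS15, whose tail reaches towards the decoding centre, differed most between replicates, with -0.32, -0.15, 0.36 and 0.33. Both arrays of replicate 1 were below 0 and both of replicate 2 above, and both of its probes gave a mean of 0.06 to 0.07. RPL36 had 0.0057, 0.01, 0.38 and 0.42, so its mean of 0.20 ± 0.27 came from replicate 2. RPL35 had -0.20, -0.29, 0.17 and 0.09. In all 3 genes the arrays of a replicate were close to each other, and replicate 2 was above replicate 1.

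**Figure D3:**
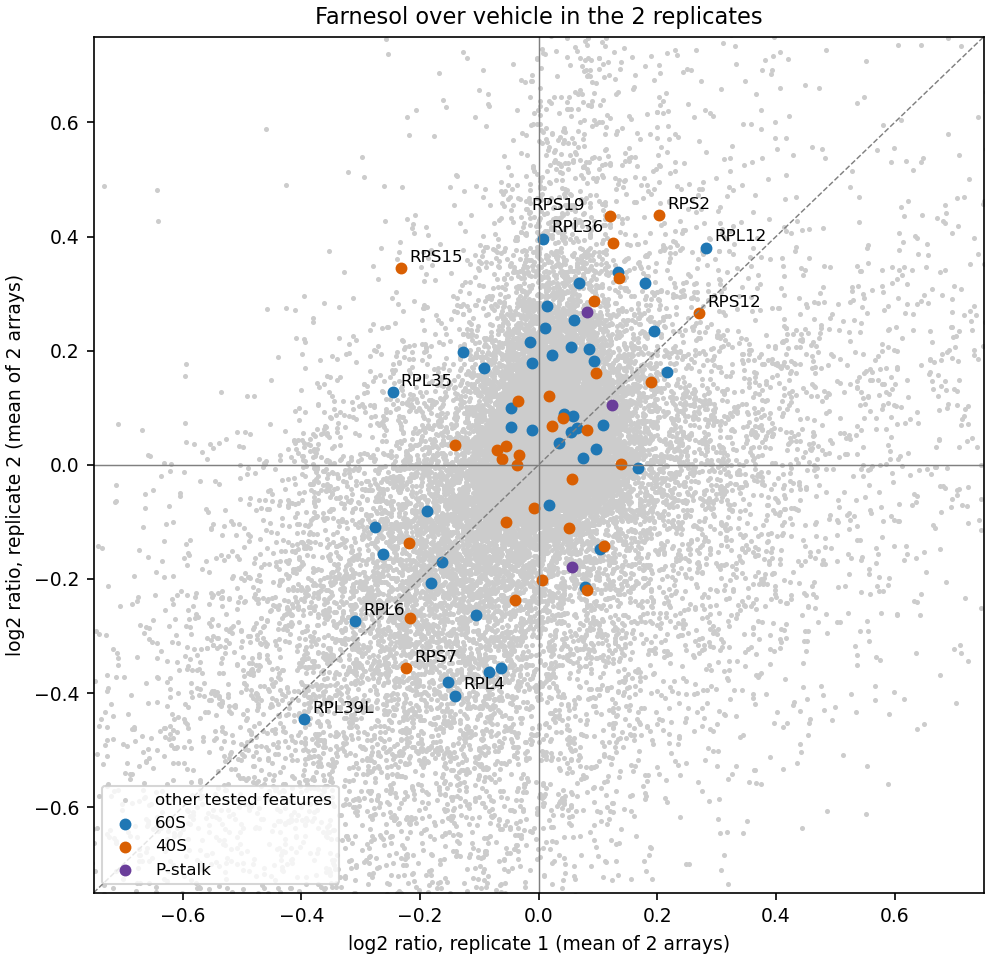
Log2 ratio of farnesol over vehicle in replicate 1 (horizontal axis) and replicate 2 (vertical axis), each the mean of 2 arrays, for all tested features (grey) and the 60S, 40S and P-stalk genes (coloured); both axes are shown from -0.75 to 0.75 and the dashed line marks equal values. RPL39L, RPL6, RPL12 and RPS12 lie near the dashed line, while RPS15 at -0.23 and 0.35 lies far from it.

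Many genes had several probes. For 55 genes with 2 or more tested probes, 181 in all, the difference between the highest and lowest probe had a median of 0.05 and a maximum of 0.43. The probes had 1 sign in 39 of these genes. RPL23A spanned most, from -0.40 to 0.03 over 7 probes. Its brightest probe had -0.03, and the value of -0.40 came from a probe with a log2 intensity of 9.11. RPL13 spanned 0.42, and here too the lowest value, -0.29, was that of its dimmest probe (7.54), while its brightest gave 0.10. RPL28 had 0.19 on its bright probe and -0.21 on a probe with a log2 intensity of 7.38. RPL15, whose bright probe had -0.18, had a dim one at -0.53, the lowest value of any probe here. Dim probes did not lie low as a rule: the 27 probes under a log2 intensity of 10 had a median of 0.02, with 13 below 0. Without them the widest difference within a gene was 0.22.

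Ribosomal proteins were first numbered by their position on gels, so that low numbers tend to be the larger proteins. A relation of the log2 ratio to this number was noticed after the values were seen and is given as a description. Over the 46 large subunit genes Spearman's rho was 0.36 and over the 32 small subunit genes it was 0.35. The values were 0.17 and 0.24 in replicate 1 and 0.37 and 0.22 in replicate 2. On the 4 arrays rho was 0.19, 0.12, 0.38 and 0.30 for the large subunit. For the small subunit it was 0.40, 0.02, 0.33 and 0.11, so the relation was weak where farnesol was in Cy3. With a normexp offset of 0 rho was 0.31 for the large and 0.23 for the small subunit. The points share arrays and intensities. For the large and small subunit, intensity had a rho of 0.22 and 0.23 with the log2 ratio, and of 0.21 and 0.27 with the number. Of the small subunit genes numbered 2 to 10, 9 of 11 were below 0, with a median of -0.05. Of those numbered 11 to 29, 14 of 21 were above 0, with a median of 0.06. Of the 18 large subunit genes numbered 3 to 15, 10 were above 0 and 8 below, with a median of 0.03. Of the 28 numbered 17 to 41, 20 were above 0 and 8 below, with a median of 0.06. In the large subunit both bands thus had a median above 0.

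Genes of related function, listed by name, were set beside them. The first list is that of the mitochondrial ribosomal proteins, which are encoded in the nucleus and build the separate ribosome of the mitochondrion. All 75 mitochondrial genes found were tested, and their median was -0.33 (-0.35 and -0.28 in the replicates). Of them 57 (76%) were lower on all 4 arrays, beside 21.8% of all features, and 1 was higher, beside 20.9%. Of them 39 had an unadjusted limma p under 0.05 and were lower, beside 10.8% of all features. None passed limma's adjusted p. MRPL51 (-1.11 ± 0.43) and MRPS18B (-1.01 ± 0.23) were the lowest, and MRPS36 (0.13 ± 0.09) and MRPL18 (0.18 ± 0.93) the highest. MRPL18 had -0.48 in replicate 1 and 0.84 in replicate 2, and with median centring MRPS36 (-0.10) and MRPL18 (-0.04) were below 0.

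The cytosolic median exceeded the mitochondrial one by 0.33, 0.37, 0.37 and 0.36 on the 4 arrays, and by 0.36 ± 0.02 over the replicates. The direction was the same on every array, but with 2 replicates the exact test cannot give a p below 0.5. The mitochondrial genes are dimmer, with a median log2 intensity of 10.3 against 14.9. With median centring the medians were -0.14 and -0.54, so the cytosolic genes again lay above.

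**Figure D4:**
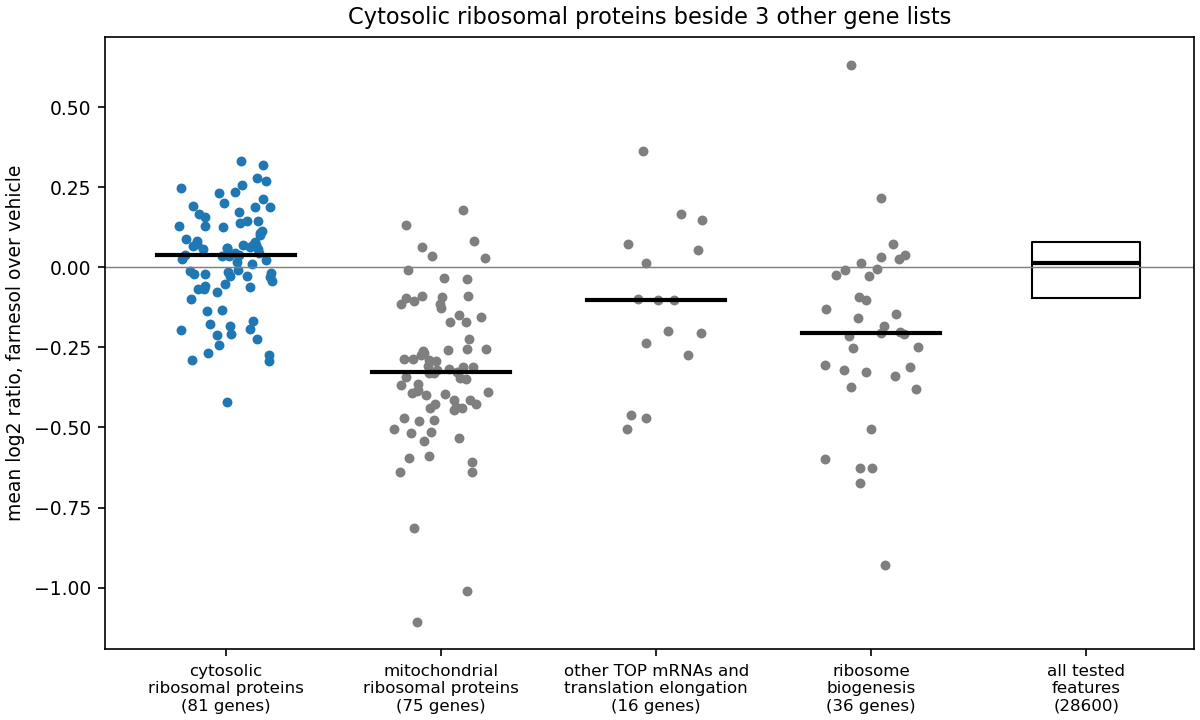
Mean log2 ratio of farnesol over vehicle (vertical axis) for each gene of 4 lists (points; black bars are medians, horizontal scatter has no meaning) and for all tested features (box, interquartile range with its median). The cytosolic ribosomal proteins lie around their median of 0.04, the mitochondrial ones around -0.33.

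A list of 16 other TOP mRNAs and elongation factors, genes commonly controlled together with the ribosomal proteins, had a median of -0.10, with -0.0026 in replicate 1 and -0.26 in replicate 2. Of these genes 2 were higher (12.5%, beside 20.9% of all features) and 3 lower (18.8%, beside 21.8%) on all 4 arrays, and none passed limma's adjusted p. NAP1L1, a histone chaperone, had -0.0092 and -1.003 in the replicates. HNRPA1, an RNA-binding protein, had -0.28 and -0.66 on its brightest probe, but its 13 probes ran from -0.48 to 0.45 and their mean was -0.02. TPT1, the translationally controlled tumour protein, had 0.56 and 0.17, and EEF1D, a subunit of an elongation factor, had 0.0051 and 0.33 and a mean that turned to -0.02 with median centring. FAU, which encodes a small subunit protein fused to a ubiquitin-like one, had -0.44, -0.23, -0.20 and -0.08. It was lower on all 4 arrays, with a mean of -0.24 ± 0.14.

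Factors of ribosome biogenesis were matched for 36 of 40 names. Their median was -0.20 (-0.09 and -0.27 in the replicates), 20 were lower (55.6%, beside 21.8% of all features) and 1 was higher (2.78%, beside 20.9%) on all 4 arrays, and none passed limma's adjusted p. WDR3, a factor of small subunit processing, had -0.93 ± 0.25, and POLR1B, a core subunit of RNA polymerase I, had -0.67 ± 0.23. RIOK3, a kinase of the RIO family, had 0.63 ± 0.27 on its brightest probe and 0.25 on its other probe. With the scanner's processed signals POLR1B was -0.98 and RIOK3 1.004, and the mean of POLR1B's probes was -0.43. RRN3, which recruits polymerase I to the ribosomal DNA, had 0.77 in replicate 1 and -0.33 in replicate 2. The ribosomal protein genes had a narrower range, -0.42 to 0.33, than this list, -0.93 to 0.63. This list is also dimmer, with a median log2 intensity of 9.37 against 14.9, and the part of brightness in the ranges was not tested.

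The authors' deposited table gives a ratio and a p-value for 7018 probes, with no p above 0.001. In the authors' deposited table there are 15 of the 207 ribosomal protein probes, or 7.25%, beside 17.1% of all probes. These 15 probes belong to 13 genes, and the ratio in the authors' deposited table is above 1 for 6 of them and below 1 for 9. They run from 0.679 for the dim probe of RPL15 to 1.35 for a dim probe of RPL31 in the authors' deposited table. That RPL31 probe (log2 intensity 7.91) had log2 ratios of 0.36 in replicate 1 and -0.17 in replicate 2. The brighter probes of RPL31 are not in the authors' deposited table. All 3 probes of RPL12 are in the authors' deposited table, with ratios of 1.22, 1.23 and 1.27. Its log2 ratios followed the scanner's log ratios of replicate 1 (r = 0.99986 across probes), against 0.832 for replicate 2, so it gave no separate replicate.

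**Figure D5:**
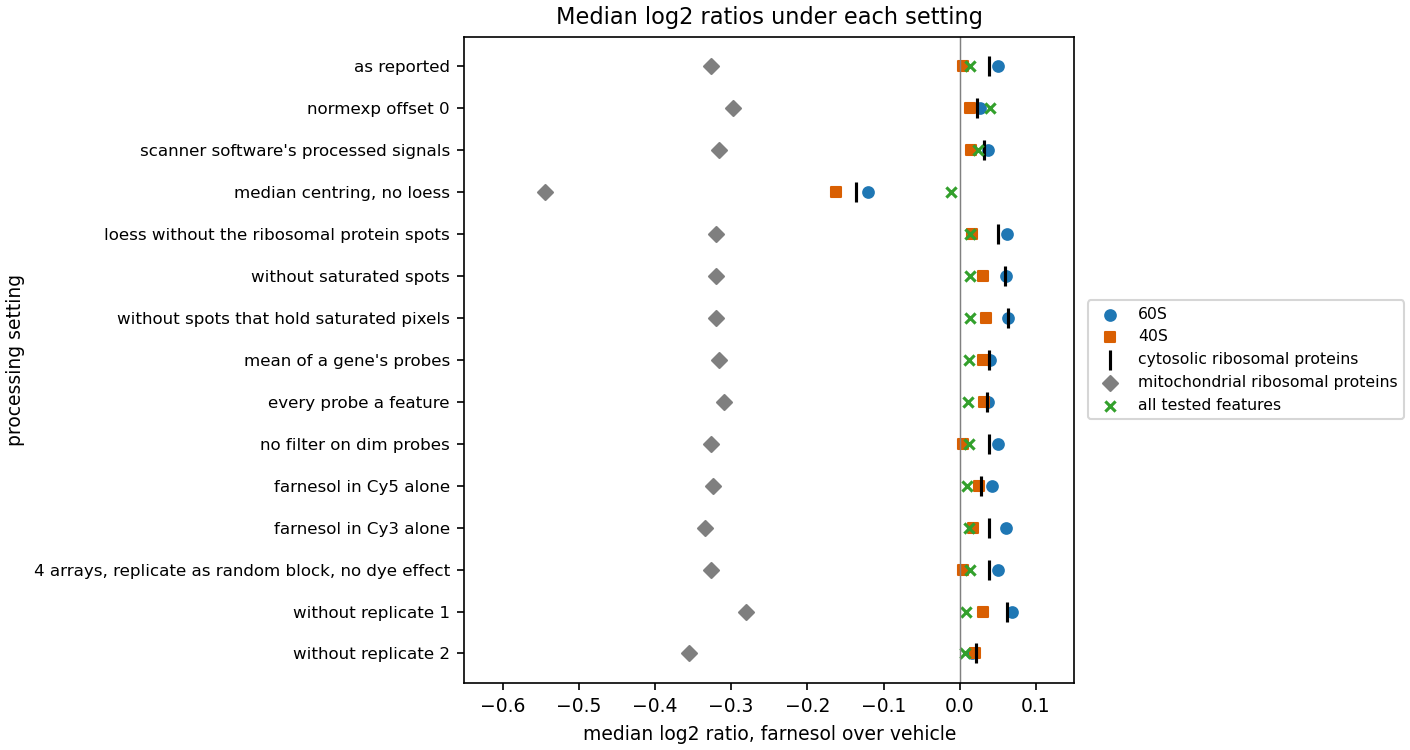
Median log2 ratio of farnesol over vehicle (horizontal axis) of the 60S, 40S, all cytosolic and mitochondrial ribosomal protein genes and of all tested features, under each processing setting (rows). The cytosolic median lies between 0.02 and 0.06 in each row except median centring without loess, where it is -0.14.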

How the data were processed

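RNA of H460 cells was amplified, labelled with Cy3 or Cy5 and hybridised in farnesol and vehicle pairs, per the labels' protocols. Scans were read with Agilent Feature Extraction 8.1.1.1, per the file headers. Intensity values used are each channel's mean spot signal and median local background signal, deposited without correction per the file headers. The deposited processed intensities and the log10 ratio of Cy5 over Cy3 are background-subtracted and dye-normalized, per the file headers, and were used as an alternative and to check the direction. Deposited flags mark spots that are saturated, outlying or above background, per the file headers. The authors' deposited table holds a p-value and a linear farnesol-to-vehicle ratio for each probe, and how they were made is not given in the sources used here.

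Computation used R 4.3.3 with limma 3.58.1 (package data.table in version 1.17.8). The normexp correction of background had an offset of 50, which shrinks the ratios of dim probes. Each array's log2 ratios were then fitted by loess, in which controls and outlying spots had weight 0. Saturated spots were kept. Signs were turned for arrays with farnesol in Cy3, and the arrays of a replicate were averaged. A probe was tested if farnesol, or else vehicle, was above background on at least 1 array in every replicate. Taking the brightest probe per gene left 28600 features, 17874 of them with a symbol. The test of the replicate mean against 0 was two-sided and had a prior of 1.81 degrees of freedom. It was also run on simulated data, where the set requirements concerned a 2-fold count and the median error, not limma's p.

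Members and lists were chosen with earlier results of these data known. Genes named were the 5 highest and 5 lowest of those with 1 sign on all arrays, the 3 whose replicates differed most, the 3 brightest, all with saturated spots, the 3 whose probes differed most, genes of textbook role, and the 2 highest and 2 lowest of each other list. Genes with an unadjusted p under 0.05, and RPL37A, RPL9, RPL7, RPL15, RPS10, RPS24, RPS18 and FAU, were added after their values were seen. Names follow the array's design and may be outdated. The reference tables supplied are of the mouse and were not used here, so no sequence or position is given. A result for 1 gene of another list is not reported here.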

Additional observations from a re-analysis of the deposited data

How the results depend on the processing

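Over the processing alternatives the ribosomal protein median kept its sign except with median centring in place of loess, where it was -0.136. That setting also gave -0.120 for 60S, -0.163 for 40S, -0.0374 for the P-stalk, -0.544 for mitochondrial ribosomal proteins, -0.312 for the other TOP mRNAs and -0.370 for biogenesis, left 1 ribosomal protein gene higher on every array (15.1% of all features), and changed the counts with an unadjusted limma p under 0.05 to 0 higher (all features 2.73%) and 19 lower (15.3%). Those counts were 0 and 1 with a normexp offset of 0 (all features 4.9% and 9.65%), 0 and 1 with the scanner's processed signals (4.65% and 10.4%), 11 and 17 of 207 with every probe a feature (3.81% and 11%), and 12 and 14 with the random block (8.37% and 15.9%). The random block, chosen after seeing the data, called 4 ribosomal protein, 33 mitochondrial, 1 other TOP and 9 biogenesis genes by limma's adjusted p, where no other setting called any. It counts the arrays of a pair as partly separate.

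The 40S and P-stalk medians moved by more than their small replicate SD in most settings: to 0.0134 and 0.0628 (offset 0), 0.0154 and 0.0779 (processed signals), 0.0300 and 0.0865 (without saturated spots), 0.0346 and 0.0909 (without spots with saturated pixels, added after seeing the data), 0.0306 and 0.0967 (mean of probes), 0.0314 and 0.0194 (every probe), 0.0259 and 0.1503 (farnesol in Cy5), and 0.0178 and -0.000671 (farnesol in Cy3). Loess without the ribosomal protein spots gave 0.0160 for 40S. Leaving out a replicate gave 0.0195 to 0.0300 for 40S and 0.0808 to 0.104 for the P-stalk. It left 27 to 37 ribosomal protein genes higher (all features 37.3% to 41.2%) and 25 lower (33.6% to 38.1%) on every array, with fewer arrays to be met. Other such counts were 28 and 25 (Cy5 arrays, all features 33.5% and 30.9%), 34 higher (Cy3 arrays, 35.3%), and 40 and 38 of 207 over all probes (19.8% and 22.5%). The cause of the other shifts was not tested.

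Of 34 named ribosomal protein genes, 10 changed sign with median centring (RPS15, RPL36, RPLP1, RPL19, RPL26, RPL13, RPL11, RPL10, RPL13A and RPL10L). Sign changes elsewhere were RPS14 and RPS27A without saturated spots, RPS27A without spots with saturated pixels, RPL28 and RPS14 with the mean of probes, RPL23A and RPS27A on the Cy5 arrays, RPLP2, RPS3, RPS14 and RPL10 on the Cy3 arrays, and 4 and 7 genes without replicates 1 and 2. The 10 genes named as highest or lowest kept their sign in every setting, but they were chosen for having 1 sign on all 4 arrays. The random block, and the settings with only some of the arrays, could therefore not turn their sign. The planned fit of the 4 arrays with a dye effect was not run to a result, since its correlation could not be estimated. Every array is already a farnesol and vehicle pair, so the test of the replicate means used within-pair ratios and was itself paired. No further pairing could be added, since there is 1 group. Saturation limits the bright probes, and 2 replicates limit every value.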

Other observations

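The bright features that are not ribosomal protein genes differed between the replicates, which was seen after the analysis and is given as values. At a log2 intensity of at least 14 there were 146 such features with a gene symbol, with medians of 0.12 in replicate 1 and 0.54 in replicate 2, and 109 without a symbol, with 0.10 and 0.19. Of those with a symbol 39 were at least 2-fold higher in replicate 2, with a median of 1.098 there and 0.11 in replicate 1. Of those without a symbol 24 were, with 1.07 and 0.11. No ribosomal protein gene was 2-fold higher in replicate 2. These features share their intensities with the ribosomal protein genes, and their part in the loess fit at the bright end was not tested.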
